A study of Homo sapiens with 9 samples.

Results

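The genes described here are 8 transcription factors that set up and maintain the identity of kidney cells, *PAX8*, *PAX2*, *HNF4A*, *LHX1*, *EMX2*, *WT1*, *GATA3* and *POU3F3*. They were picked by name, through the NCBI gene identifiers that mark the rows of the counts table. No measured value entered this rule, but earlier results of these data were known when the genes were chosen. They are 8 of the 28395 genes listed, and each has a row. The study sequenced mRNA of 3 human kidney lines to follow the progression of clear cell renal cell carcinoma (ccRCC). HK2 is an immortalized line of normal proximal tubule cells, labelled parental. 786-O is the parental line of a primary ccRCC that has lost *VHL*, the gene whose loss drives this cancer. 786-M1A is a metastatic derivative of 786-O, recovered from lung metastases after injection in vivo, so that it shares the *VHL* loss and the origin of 786-O. All 3 lines were grown stably in Plasmax, a medium modelled on the nutrients of human serum, and none was treated. Each line gave 3 libraries, 9 in all. HK2 stands for 1 donor and the cancer lines for another, so that differences between HK2 and either cancer line cannot be told apart from differences between these people. The cancer lines share a donor, and each is 1 line. The p-values below measure the spread between the replicate cultures of a line only.

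The kidney forms from the intermediate mesoderm, where PAX2, PAX8 and LHX1 act together at the start of the lineage and EMX2 is needed for the growth of the ureteric bud. WT1 acts in the mesenchyme that becomes the nephron and later marks the podocytes of the glomerulus, GATA3 marks the nephric duct and the collecting system that grows from it, POU3F3 acts in the loop of Henle and the distal tubule, and HNF4A drives the mature proximal tubule. Pathologists use PAX8 and PAX2 as markers of renal epithelial tumors.

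The libraries held between 30212291 and 45362428 reads assigned to genes. Log2 expression correlated at 0.997 or more between libraries of the same line across genes, which are not independent replicates. Levels are given as CPM, counts scaled to library totals of equal size after correction by edgeR's TMM factors, and 3 counts, taken as the least that a library can show, were between 0.0647 and 0.0964 CPM. The tests between lines are those of edgeR's quasi-likelihood model, run on the 12695 genes whose mean over the libraries reached 50 counts, and a gene was called at a Benjamini-Hochberg adjusted p under 0.05. The labelled origin was only in part visible in the markers. Of 10 markers of the proximal tubule, 7 in HK2 and 6 in each cancer line were above 3 counts in every library, whereas *LRP2* and *SLC22A6*, which encode megalin and an organic anion transporter, were at 0 in all 9 libraries. Their summed level was between 132 and 137 CPM in HK2, 206 and 209 CPM in 786-O and 148 and 157 CPM in 786-M1A. The higher sum in 786-O came from *ANPEP*, with means of 1.74 CPM in HK2 and 112 CPM in 786-O, whereas *GGT1* and *MME*, the other tested markers, were lower there with log2 fold changes of -0.42 and -0.81. Of 7 markers of ccRCC, 6 in HK2 and 5 in each cancer line were above 3 counts in every library. Their summed level was between 306 and 329 CPM in HK2, 1373 and 1451 CPM in 786-O and 1991 and 2032 CPM in 786-M1A. Most of these sums came from *SLC2A1* (means of 194, 810 and 1060 CPM), *CCND1* and *VEGFA*. Of 5 tested, 4 were higher in each cancer line, and *ANGPTL4* was not called against HK2 (edgeR adjusted p = 0.173 and 0.0967). Over all tested genes, 41.6% were called higher in either comparison with HK2. *NDUFA4L2* had 4 to 8 reads in HK2, at most 1 in 786-O and 1 to 6 in 786-M1A, and *CA9* had at most 3 counts in any library. The 6 markers of fibroblasts summed to between 77.6 and 87.0 CPM in HK2, 282 and 351 CPM in 786-O and 302 and 306 CPM in 786-M1A, with 5, 4 and 3 of them above 3 counts in every library and *COL1A2* at 0 in HK2. Of 4 tested, 2 were higher and 2 lower in 786-O, where *COL1A1* made up most of the sum (means of 53.6, 291 and 16.5 CPM in HK2, 786-O and 786-M1A). In 786-M1A, 1 was higher and 3 lower, and *PDGFRB* made up most of the sum (4.98, 2.59 and 282 CPM in the same order). *COL3A1*, called in both comparisons, reached the count filter through 786-O alone, so its calls are a description. Of all tested genes, 84.2% and 84.9% were called in these comparisons. The markers of distal tubule, endothelium and leukocytes summed to at most 0.259, 1.24 and 0.496 CPM in any library, and *PTPRC* and *CD3E* were at 0 throughout. The part of these differences in the results below was not tested. In such cultures, fewer cells that express a gene and less of its mRNA per cell cannot be told apart.

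The 8 factors split into those transcribed at readily measured levels and those at the limit of the depth (plot of CPM by library). *PAX8* and *LHX1* passed the count filter in all 3 lines, *PAX2* passed it with its lowest level in HK2, and *WT1* passed it through the cancer lines alone. *HNF4A*, *GATA3*, *EMX2* and *POU3F3* did not reach the filter, and no library had more than 24 reads on any of them. Per kilobase of annotated exon, the order of the mean levels in HK2 was *PAX8* with 22.7 CPM per kb, *LHX1* with 20.5 and *PAX2* with 0.529, with *WT1* at 0. *PAX8* and *LHX1* were neighbours in that order and came close, with *PAX8* between 22.0 and 23.5 and *LHX1* between 18.9 and 21.7 CPM per kb, without overlap. In 786-O the order was *PAX8* with 22.3 CPM per kb, *LHX1* with 7.62, *WT1* with 4.21 and *PAX2* with 3.79, where the libraries of *WT1*, between 4.15 and 4.25, lay just above those of *PAX2*, between 3.59 and 3.95. In 786-M1A *PAX8* came first with 24.7 CPM per kb, followed by *WT1* with 5.63, *LHX1* with 4.58 and *PAX2* with 1.62. *PAX8* was above 83.4% of the tested genes in 786-O and above 84.4% in 786-M1A by CPM per kb, and *LHX1* went from above 82.2% of them in HK2 to above 45.1% in 786-M1A.

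**Figure D1:**
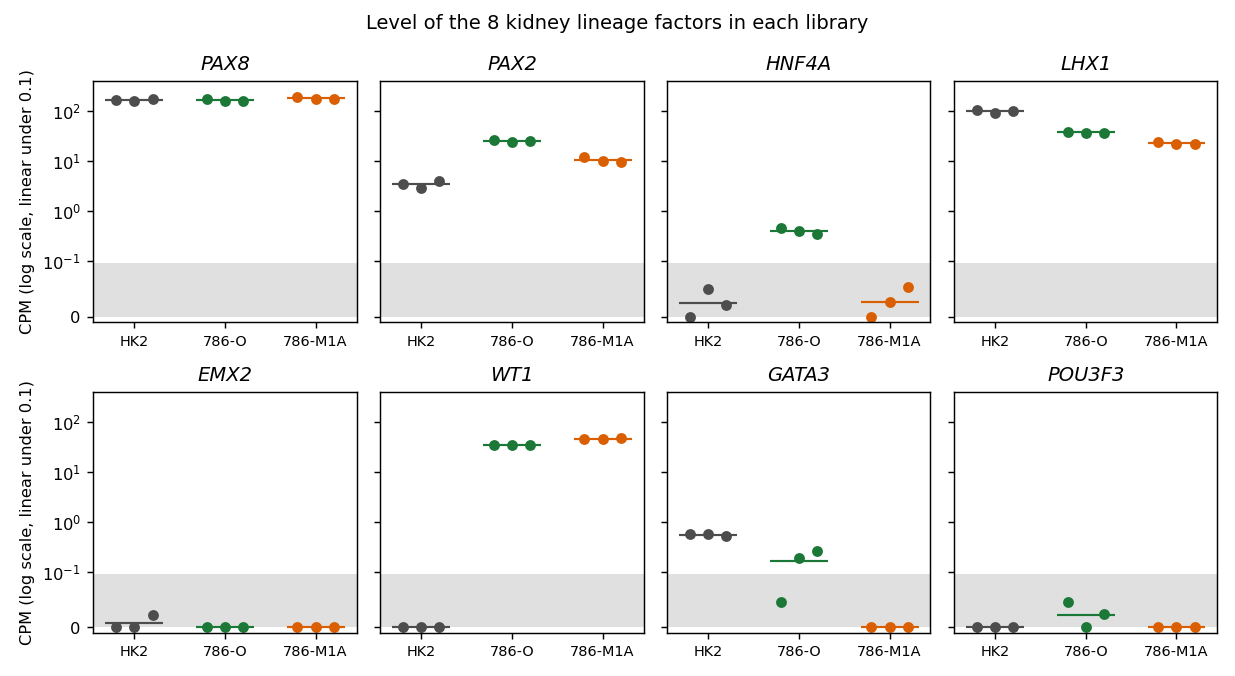
CPM of each of the 8 factors in the 9 libraries (points) with the mean of each line (bars), on an axis that is logarithmic above 0.1 CPM and linear below. The grey band is under 3 counts in the shallowest library; *PAX8*, *LHX1* and *PAX2* lie above it in every line, *WT1* in 786-O and 786-M1A only, and *EMX2* and *POU3F3* in none.

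Stretches around transcription starts are printed because *WT1* was silent in HK2 and transcribed in both cancer lines, whereas *PAX2* and *PAX8*, sister genes with related DNA-binding domains, went apart. Each holds 250 bases before and 50 after a RefSeq start (GRCh38.p14), 5′ to 3′ on the strand of the gene. Capitals mark CG pairs, the sites where DNA can be methylated, and methylation was not measured in these files. *WT1* has 4 such windows and *PAX2* has 2, at separate starts, and gene counts do not tell which start was used. The most upstream of the *WT1* windows is shown.
WT1 first start, chr11:32435490-32435789, minus strand: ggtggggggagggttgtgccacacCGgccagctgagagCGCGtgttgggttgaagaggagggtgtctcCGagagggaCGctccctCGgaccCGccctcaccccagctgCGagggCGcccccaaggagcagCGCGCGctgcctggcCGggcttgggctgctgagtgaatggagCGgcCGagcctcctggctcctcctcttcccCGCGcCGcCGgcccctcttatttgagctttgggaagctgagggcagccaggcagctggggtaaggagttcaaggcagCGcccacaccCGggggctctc
PAX2 first start, chr10:100735146-100735445, plus strand: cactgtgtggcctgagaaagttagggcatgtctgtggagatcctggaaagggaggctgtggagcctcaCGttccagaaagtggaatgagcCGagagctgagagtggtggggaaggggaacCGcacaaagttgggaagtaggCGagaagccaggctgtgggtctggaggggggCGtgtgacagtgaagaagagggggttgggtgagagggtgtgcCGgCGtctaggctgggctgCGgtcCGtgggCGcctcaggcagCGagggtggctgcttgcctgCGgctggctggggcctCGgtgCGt
PAX2 second start, chr10:100745332-100745631, plus strand: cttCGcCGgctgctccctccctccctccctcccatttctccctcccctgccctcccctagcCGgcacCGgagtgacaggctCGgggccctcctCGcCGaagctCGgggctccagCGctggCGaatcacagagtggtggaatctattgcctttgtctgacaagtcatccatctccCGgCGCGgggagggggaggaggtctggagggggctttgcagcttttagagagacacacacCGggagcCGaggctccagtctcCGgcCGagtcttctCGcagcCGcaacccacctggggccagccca
PAX8, chr2:113278872-113279171, minus strand: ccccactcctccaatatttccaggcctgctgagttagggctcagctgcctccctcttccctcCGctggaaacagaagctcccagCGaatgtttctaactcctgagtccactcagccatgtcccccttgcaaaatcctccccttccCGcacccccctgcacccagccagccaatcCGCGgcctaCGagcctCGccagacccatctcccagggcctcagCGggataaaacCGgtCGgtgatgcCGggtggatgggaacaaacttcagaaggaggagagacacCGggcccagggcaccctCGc
The first *WT1* window held 21 CG pairs, the first and second *PAX2* windows 14 and 19, and the *PAX8* window 13, against a median of 14 over 35116 windows of the same 300 bases. The letters GGGCGG (GC box) occurred once in the first *WT1* window on either strand and in neither *PAX2* window nor the *PAX8* window, while 45.0% of all windows hold them. ACGTG, the core of the hypoxia response element, occurred once in the first *PAX2* window and in none of the other 3, and 21.4% of all windows hold it. The E-box CACGTG, which contains the letters above, is in 7.26% of all windows, and the core GCGTGGG that EGR1 and WT1 bind in 6.98%. The TATA box with the letters TATAAA is in 11.5%, the GATA site AGATAA in 10.3% and the paired-domain core GTCACGC in 2.52%. None of these was in any of the 4 windows shown. The other *WT1* windows held 17, 20 and 4 CG pairs, and the last of them held ACGTG once. Such a match is a description of letters. Of the other factors, *HNF4A* had 2 windows with 11 and 9 CG pairs, *EMX2* and *POU3F3* 1 window each with 21, and *GATA3* 6 windows with between 5 and 36.

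*PAX8* (NCBI gene 7849; GRCh38 chromosome 2, 113215997 to 113278921, minus strand), a paired-box factor known as a driver of ccRCC, was the most steady of the tested factors. HK2 libraries had 5137, 6556 and 8035 reads on it, 786-O libraries 7635, 6115 and 6775, and 786-M1A libraries 6938, 6833 and 6672. On the corrected scale these were 165, 163 and 173 CPM in HK2, 172, 162 and 160 CPM in 786-O, and 192, 178 and 176 CPM in 786-M1A. The libraries of HK2 and 786-O overlapped, and those of 786-M1A lay above both. Its log2 fold change was 0.12 between 786-M1A and HK2 (standard error 0.042, edgeR adjusted p = 0.0107) and 0.14 between 786-M1A and 786-O (standard error 0.042, edgeR adjusted p = 0.00629). Between 786-O and HK2 the difference missed the threshold (log2 fold change -0.02, standard error 0.042, edgeR adjusted p = 0.641, exact two-sided permutation p = 0.5). The call between 786-M1A and HK2 was lost with upper-quartile factors (log2 fold change 0.07, edgeR adjusted p = 0.108) and without HK2 replicate 2 (0.10, edgeR adjusted p = 0.0509). *PAX8-AS1*, an antisense RNA in the same locus, had between 30 and 81 reads per library, at most 0.998% of the reads on both genes.

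*PAX2* (NCBI gene 5076; chromosome 10, 100735396 to 100829944, plus strand), the sister gene that in normal adult tubules is largely switched off, was higher in both cancer lines and highest in 786-O. HK2 libraries had 108, 119 and 187 reads on it, or 3.47, 2.95 and 4.03 CPM. In 786-O the reads were 1155, 890 and 1068, or 26.0, 23.6 and 25.2 CPM, and in 786-M1A 434, 393 and 368, or 12.0, 10.2 and 9.72 CPM. No library of one line overlapped with those of another, with 786-M1A between HK2 and 786-O. The level in 786-O was 7.11-fold that in HK2 (log2 fold change 2.83, standard error 0.095, edgeR adjusted p = 1.77e-16), and the level in 786-M1A 3.03-fold (log2 fold change 1.60, standard error 0.106, edgeR adjusted p = 1.45e-11). From 786-O to 786-M1A it fell by 1.23 on the log2 scale, or 2.35-fold (standard error 0.080, edgeR adjusted p = 6.55e-11). No other annotated gene of GENCODE release 44 overlaps *PAX2*.

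Since *PAX8* moved little, the makeup of this pair changed with *PAX2*. Per kilobase of exon, *PAX2* gave 2.30%, 1.99% and 2.54% of the *PAX2* and *PAX8* mRNA in the HK2 libraries, 14.5%, 14.0% and 15.0% in 786-O, and 6.55%, 6.05% and 5.82% in 786-M1A. The 3 lines did not overlap, with means of 2.28% ± 0.275 (SD, n = 3), 14.5% ± 0.495 (SD, n = 3) and 6.14% ± 0.372 (SD, n = 3). *PAX8* remained the larger part of the pair in every library.

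**Figure D2:**
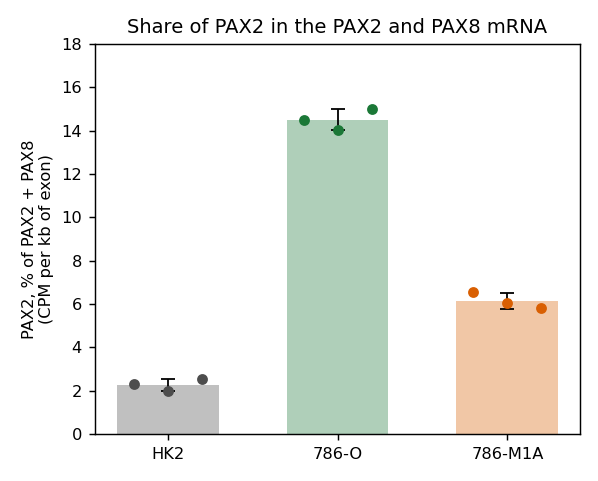
Share of *PAX2* in the summed CPM per kb of *PAX2* and *PAX8*, in percent, for HK2, 786-O and 786-M1A (points are libraries, bars means, error bars SD over 3 libraries). The share was lowest in HK2 (1.99% to 2.54%), highest in 786-O (14.0% to 15.0%) and in between in 786-M1A (5.82% to 6.55%).

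*LHX1* (NCBI gene 3975; chromosome 17, 36936785 to 36944612, plus strand), a LIM homeobox factor needed for nephric duct and nephron formation, stepped down from line to line. Reads on it numbered 3318, 3749 and 4756 in HK2, 1709, 1406 and 1545 in 786-O, and 861, 843 and 823 in 786-M1A. These were 107, 92.9 and 103 CPM in HK2, 38.5, 37.3 and 36.5 CPM in 786-O, and 23.8, 22.0 and 21.7 CPM in 786-M1A. HK2 had the highest and 786-M1A the lowest libraries, without overlap. It was 2.69-fold lower in 786-O than in HK2 (log2 fold change -1.43, standard error 0.051, edgeR adjusted p = 9.56e-17) and 4.48-fold lower in 786-M1A than in HK2 (log2 fold change -2.16, standard error 0.054, edgeR adjusted p = 1.47e-19). From 786-O to 786-M1A it fell by 0.74 on the log2 scale (standard error 0.057, edgeR adjusted p = 3.93e-10).

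*WT1* (NCBI gene 7490; chromosome 11, 32387775 to 32435539, minus strand), the zinc finger factor of nephron progenitors and podocytes, had no read in any of the 3 HK2 libraries. In 786-O it had 1534, 1295 and 1431 reads, or 34.6, 34.4 and 33.8 CPM, and in 786-M1A 1645, 1723 and 1779 reads, or 45.5, 44.9 and 47.0 CPM. Both cancer lines were thus far above the floor in every library, and 786-M1A lay above 786-O without overlap. Against 3 counts in the shallowest HK2 library, *WT1* was at least 355-fold higher in 786-O and at least 475-fold higher in 786-M1A. These bounds are given as a description, since *WT1* reached the count filter through the cancer lines alone. Between the cancer lines the log2 fold change was 0.42, or 1.34-fold higher in 786-M1A (standard error 0.046, edgeR adjusted p = 2.41e-07). *WT1-AS*, transcribed from the opposite strand at the *WT1* start, followed the same on and off pattern, with 0 reads in HK2, 47 to 63 in 786-O and 70 to 77 in 786-M1A. It made up between 3.18% and 4.47% of the reads on both genes in the cancer lines, and since the sources used here do not give the strand setting of the counting, reads of the pair cannot be told apart to that extent.

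**Figure D3:**
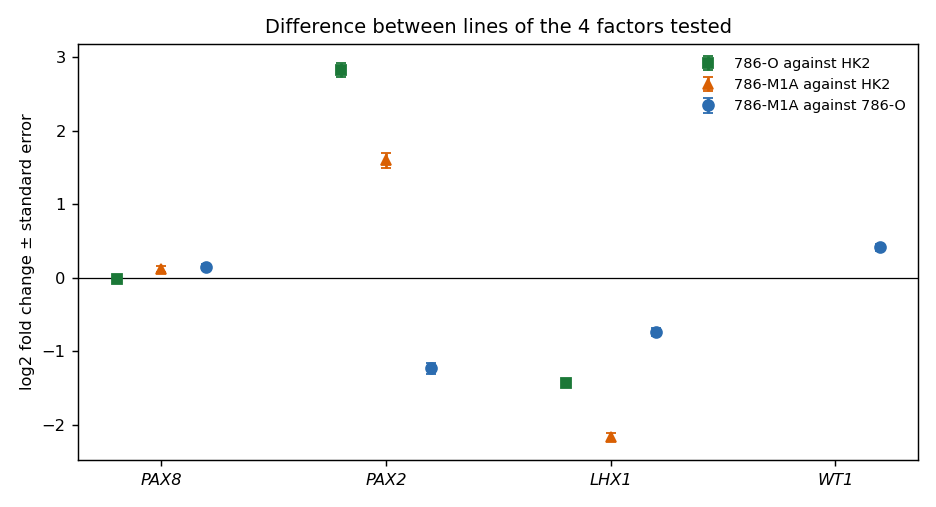
Log2 fold change (vertical axis, error bars are standard errors of edgeR's fit) of the 4 tested factors in 786-O against HK2 (squares), 786-M1A against HK2 (triangles) and 786-M1A against 786-O (circles). *PAX2* was higher and *LHX1* lower in both cancer lines, *PAX8* stayed within 0.14 of 0, and *WT1* is drawn for the cancer lines only, as HK2 had no reads on it.

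*HNF4A* (NCBI gene 3172; chromosome 20, 44355699 to 44434596, plus strand), the nuclear receptor that maintains the mature proximal tubule, was at the limit of detection in the line of proximal tubule origin. HK2 libraries had 0, 2 and 1 reads on it and 786-M1A libraries 0, 1 and 2, all under 3 counts. 786-O libraries had 20, 15 and 15, or 0.451, 0.398 and 0.354 CPM, above every library of the other lines. The ratio of 786-O to HK2 was 15.8 (95% interval 5.10 to 79.1, exact binomial) and that of 786-O to 786-M1A 15.1 (4.86 to 75.5). Without a filter on low counts edgeR called both differences (adjusted p = 2.70e-09 and 2.23e-08), among 63.8% and 38% of all genes in those comparisons. Between 786-M1A and HK2 no difference could be detected at this depth. These intervals cover counting error only, and even in 786-O the level was 0.401 ± 0.0483 CPM (SD, n = 3). *HNF4A-AS1* had no reads in any library.

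*GATA3* (NCBI gene 2625; chromosome 10, 8045333 to 8075198, plus strand), the zinc finger factor of the nephric duct and collecting system, had its highest level in HK2. HK2 libraries had 18, 23 and 24 reads on it, 786-O libraries 2, 7 and 11, and 786-M1A libraries none. HK2 was above 786-O and 786-O above 786-M1A without overlap, but 1 of the 786-O libraries was under 3 counts. The ratio of HK2 to 786-O was 3.43 (95% interval 2.05 to 5.98, exact binomial), and HK2 was at least 6.70-fold higher than 786-M1A. Without a filter on low counts edgeR called *GATA3* lower in 786-O than in HK2 (adjusted p = 1.18e-05). The gene was also called lower in 786-M1A than in HK2 (edgeR adjusted p = 2.76e-16) and than in 786-O (edgeR adjusted p = 1.73e-05). Of all genes, 63.8%, 64.7% and 38% were called in these comparisons. The antisense gene *GATA3-AS1* was at 0 throughout.

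*EMX2* (NCBI gene 2018; chromosome 10, 117542746 to 117549546, plus strand) had 1 read in 1 HK2 library and none in the other 8. *POU3F3* (NCBI gene 5455; chromosome 2, 104853276 to 104927773, plus strand) had 2 and 1 reads in 2 of the 786-O libraries and none in the other 7. Both were thus not detectable above 3 counts in any line, and no difference between lines was called for either gene without a filter on low counts (edgeR adjusted p between 0.147 and 1). Their neighbours *EMX2OS* and *PANTR1*, transcripts divergent from or antisense to them, were at 0 as well.

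**Figure D4:**
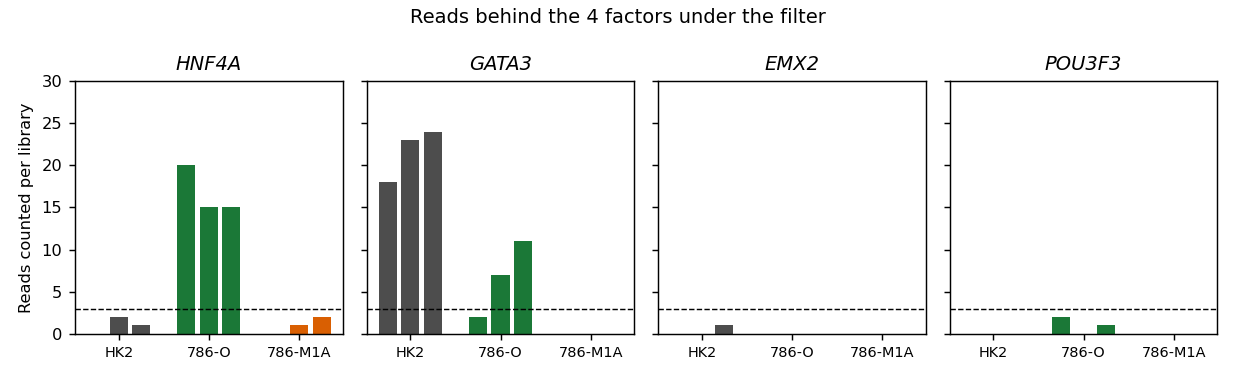
Reads per library (bars, 3 per line) on the 4 factors that did not reach the filter, with the floor of 3 counts as a dashed line. *HNF4A* exceeded the floor only in 786-O (15 to 20 reads), *GATA3* in HK2 (18 to 24 reads) and in 2 of the 786-O libraries, and *EMX2* and *POU3F3* in none.

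As a group, 3 of the 4 tested factors were called between 786-O and HK2, *PAX2* and *WT1* higher and *LHX1* lower, in a comparison where 84.2% of all tested genes were called, 41.6% higher and 42.6% lower. All 4 were called between 786-M1A and HK2, 3 higher and 1 lower, against 84.9% of tested genes, 41.6% higher and 43.3% lower. Between 786-M1A and 786-O all 4 were called, *PAX8* and *WT1* higher and *PAX2* and *LHX1* lower, against 56% of tested genes, 27.9% higher and 28% lower. The share of genes whose libraries did not overlap was 85.4%, 85% and 61.6% in these comparisons. These counts were near the background in the comparisons with HK2, and *WT1*, which passed the filter through the cancer lines, had to differ there. *PAX2*, *LHX1* and *WT1* differed from HK2 by 2-fold or more in both cancer lines, as did 22.3% of the tested genes in 786-O and 25.4% in 786-M1A. Between 786-M1A and 786-O, *PAX2* alone among the 4 was past 2-fold, as were 6.59% of the tested genes. The comparisons with HK2 share its libraries and are not independent of each other.

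Other factors of the kidney lineage were described from 4 lists of 40 genes, of which 21 were tested (plot of the other kidney factors). Between 786-O and HK2, 11 were higher and 8 lower, with a median log2 fold change of 0.21 against -0.01 over all tested genes. The counts were 10 higher and 8 lower between 786-M1A and HK2 (median 0.22 against -0.02) and 6 higher and 7 lower between 786-M1A and 786-O (median 0.02 against 0). With 84.2%, 84.9% and 56% of all tested genes called, shares of 19, 18 and 13 of 21 were near the background. These counts hold *SIM2*, which reached the count filter through the cancer lines alone, and *TFCP2L1*, which reached it through 786-O alone. Both had to be higher than in HK2 there.

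Among 9 factors of nephron progenitors, 4 were tested, and all 4 were called against HK2 in both cancer lines. This was near the background, as 84.2% and 84.9% of all tested genes were called in these comparisons. *SALL1*, which maintains the progenitors, had 29.8 ± 2.12, 89.2 ± 2.77 and 59.7 ± 2.87 CPM (SD, n = 3) in HK2, 786-O and 786-M1A. It thus had the order of *PAX2*, lowest in HK2 and highest in 786-O, with log2 fold changes against HK2 of 1.58 and 1.00 (edgeR adjusted p = 1.89e-17 and 8.32e-14) and of -0.58 between the cancer lines (edgeR adjusted p = 1.69e-09). *SIX2*, which keeps progenitors undifferentiated, had 56 to 92 reads in HK2 and none in either cancer line, and was at least 23.7-fold lower in 786-O and at least 22.8-fold lower in 786-M1A. *HOXA11* and *HOXD11*, which pattern the metanephros, were higher in 786-O by 0.51 and 0.84 and in 786-M1A by 0.52 and 0.92 on the log2 scale. *OSR1*, *EYA1*, *MEOX1* and *CITED1* had at most 22 reads in any library.

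Among 13 factors of the nephron epithelium, 8 were tested. Of these, 6 were higher and 1 lower in 786-O than in HK2, and the counts were the same in 786-M1A. Over all tested genes, 41.6% were higher in either comparison, and with 8 genes the counts are a description of the list only. *HNF4G*, the paralogue of *HNF4A*, was measured well where *HNF4A* was not, with 6.78 ± 0.524, 9.63 ± 0.635 and 10.4 ± 0.554 CPM (SD, n = 3). *MAF*, a factor of the proximal tubule, rose by 0.44 in 786-O and 1.36 in 786-M1A on the log2 scale, and *BHLHE41* by 1.82 in 786-M1A (edgeR adjusted p = 8.93e-16), with 0.05 in 786-O (edgeR adjusted p = 0.625). *SIM2* was higher by 3.27 and 3.32 from only 3 to 15 reads in HK2, and it reached the count filter through the cancer lines alone. *HEY1*, a target of Notch, had log2 fold changes of -1.18 in 786-O and -2.37 in 786-M1A, in the same order as *LHX1*. *IRX3* was higher by 1.18 in 786-M1A, and *IRX1* was at 0 throughout.

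Of 12 factors of the ureteric bud and collecting duct, the list that *GATA3* stands closest to, 6 were tested, with 1 higher and 4 lower in 786-O and 1 higher and 5 lower in 786-M1A, where 42.6% and 43.3% of all tested genes were lower. With 6 genes these counts are a description of the list only. The median log2 fold change was -0.68 in 786-O and -0.63 in 786-M1A, against -0.01 and -0.02 over all tested genes. *ETV4*, which acts downstream of RET in the bud, had log2 fold changes of -2.86 and -2.58, and *TFAP2A* of -2.02 and -1.50. *TFCP2L1*, a factor of the collecting duct, was the gene called higher, with 3 to 4 reads in HK2, 167 to 198 in 786-O and 14 to 18 in 786-M1A. This is the same order as for *PAX2*, but *TFCP2L1* reached the count filter through 786-O alone, so its calls are a description. *SOX8*, *TFAP2B*, *ELF5* and *FOXI1* had no reads.

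The factors of podocytes and stroma, the list nearest to *WT1*, went in both directions. Of 6 genes, 3 were tested, with 1 higher and 2 lower in 786-O and 1 lower in 786-M1A. Over all tested genes, 42.6% and 43.3% were lower in these comparisons. With 3 genes these counts are a description of the list only. *TCF21*, which like *WT1* acts in podocytes and in the mesenchyme, had 72 to 110 reads in HK2, 1 read in 1 of the 786-O libraries and none in 786-M1A, the opposite of *WT1*. *FOXC2* was higher by 1.30 in 786-O than in HK2 on the log2 scale and differed by -1.08 between 786-M1A and 786-O. *FOXC1* went from 13.4 ± 0.609 CPM (SD, n = 3) in HK2 to 6.71 ± 0.151 in 786-M1A, and *FOXD1* differed by -0.78 between 786-O and HK2. Between 786-M1A and 786-O, *FOXD1* differed by 0.76 (edgeR adjusted p = 2.68e-09), the direction of *WT1*, and *FOXC1* by -0.75. *LMX1B* had at most 1 read.

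**Figure D5:**
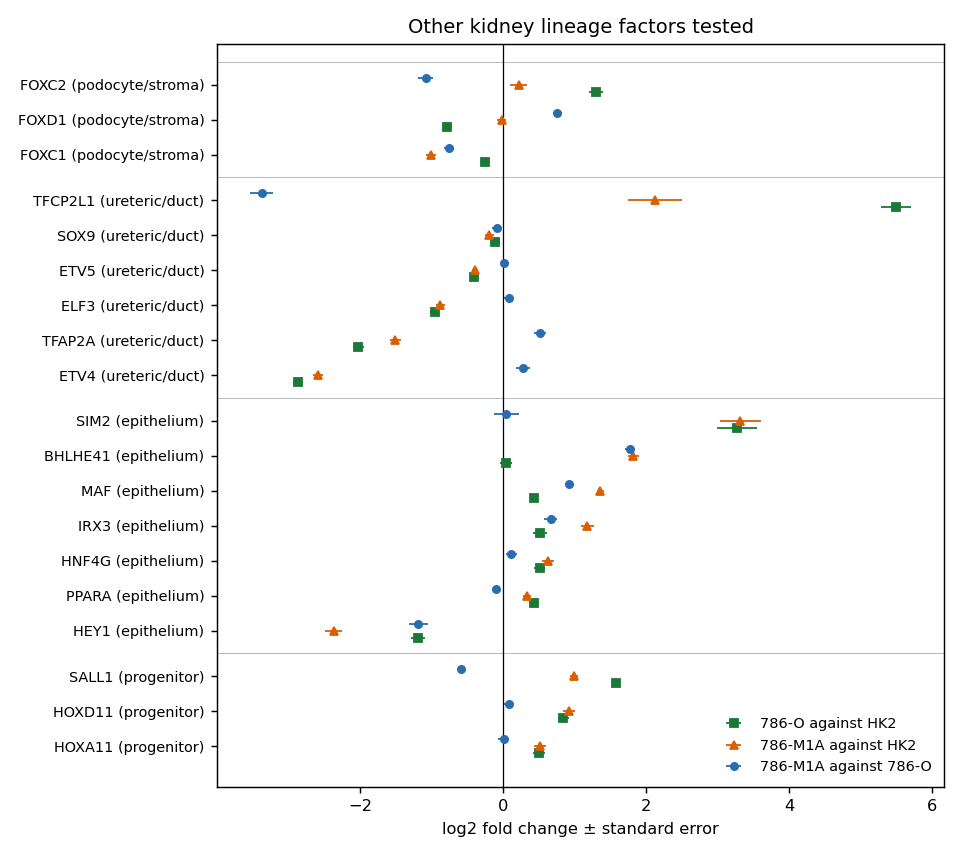
Log2 fold change (horizontal axis, error bars are standard errors) of 19 tested factors of the 4 lists, in 786-O against HK2 (squares), 786-M1A against HK2 (triangles) and 786-M1A against 786-O (circles). *TFCP2L1* and *SIM2* lie farthest to the right, *ETV4* and *HEY1* are the lowest of their lists in the comparisons with HK2, and *SOX9* lies near 0.

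Of 10 cofactors of the 8 factors, 8 were tested, and 3 were higher and 4 lower in 786-O and 4 higher and 4 lower in 786-M1A. In these comparisons 84.2% and 84.9% of all tested genes were called. *PPARGC1A*, a coactivator of HNF4A and other nuclear receptors, had 2137 to 3046 reads in HK2, 177 to 210 in 786-O and 4 to 10 in 786-M1A, or 66.1 ± 2.45, 4.79 ± 0.146 and 0.194 ± 0.0777 CPM (SD, n = 3). The log2 fold changes were -3.79 and -8.38 against HK2 and -4.59 between the cancer lines (edgeR adjusted p = 1.29e-22, 2.16e-24 and 3.36e-15). *LDB1*, the partner through which LIM homeobox factors such as LHX1 act, had 117 ± 2.26, 55.9 ± 1.26 and 51.0 ± 3.27 CPM (SD, n = 3) in HK2, 786-O and 786-M1A. Its log2 fold changes against HK2 were -1.07 and -1.21, whereas *SSBP2* and *SSBP3*, which bind LDB1, were higher by 0.70 and 0.74 in 786-O and 0.61 and 0.85 in 786-M1A. *PAXIP1*, which binds PAX2, had log2 fold changes of -1.07 and -0.81. *ZFPM2*, a cofactor of GATA factors that reached the count filter through HK2 alone, had -3.17 and -3.72, and *ZFPM1* was higher by 0.30 and 0.81. *BASP1*, a corepressor of WT1, was at -0.01 in 786-O (edgeR adjusted p = 0.770) and higher by 0.21 in 786-M1A (edgeR adjusted p = 3.58e-05).

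Among 27 paralogues of the factors, 6 were tested. *PAX6* had log2 fold changes of -1.54 in 786-O and -1.52 in 786-M1A, from 28.5 ± 0.674 CPM (SD, n = 3) in HK2. *PAX5*, the closest relative of *PAX2* and *PAX8*, had 6 to 14 reads in 786-O and at most 1 in any other library. *PAX9* had 8 to 25 reads in HK2, 20 to 23 in 786-O and none in 786-M1A, and *PAX1*, *PAX4* and *PAX7* were at 0. *LHX2* and *LHX6* had 126 to 193 and 291 to 434 reads in HK2 and none in either cancer line, which is at least 51.0-fold and 119-fold lower in 786-O and at least 49.0-fold and 115-fold lower in 786-M1A. *LHX1* fell but was still read in every library. *GATA6* was higher by 1.64 in 786-O and 1.59 in 786-M1A and *GATA2* by 0.42 in 786-M1A, the opposite direction to *GATA3*, while *GATA4* and *GATA5* had at most 1 read. *EGR1*, whose zinc fingers resemble those of WT1, had -2.00 and -2.50. Of the tested paralogues, 1 was higher and 4 lower in 786-O and 2 were higher and 4 lower in 786-M1A. Over all tested genes, 42.6% and 43.3% were lower in these comparisons. *LHX2* and *LHX6* reached the count filter through HK2 alone, so they had to be lower in both cancer lines. The medians of -1.77 and -2.01, which are the same with *LHX2* and *LHX6* at these bounds, and the counts are a description of the list only.

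Genes known as targets of the factors were mostly under the filter, with 9 tested. Of 14 targets of HNF4A, 3 were tested, and *APOB*, *APOC3*, *TTR*, *G6PC1*, *SLC22A6* and *SLC22A8* had at most 1 read in any library. *SLC2A2*, the glucose transporter of the proximal tubule, had 110 to 130 reads in HK2, 96 to 125 in 786-O and 2 to 4 in 786-M1A, and *AGT*, which encodes angiotensinogen, 203 to 294, 114 to 154 and 17 to 22. Between the cancer lines *SLC2A2* fell by 5.00 and *AGT* by 2.60 on the log2 scale (edgeR adjusted p = 1.38e-12 and 8.83e-11). In the same comparison *HNF4A* went from 15 to 20 reads to at most 2. HK2 also had at most 2 reads on *HNF4A*, yet 110 to 130 on *SLC2A2* and 203 to 294 on *AGT*. *SERPINA1* had log2 fold changes of -0.53 in 786-O and -0.59 in 786-M1A against HK2.

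Of 10 targets of PAX2 and PAX8, 3 were tested. *NCAM1*, an adhesion molecule of the developing nephron, had 12 to 24 reads in HK2, 3941 to 4681 in 786-O and 5618 to 6346 in 786-M1A. Its log2 fold changes against HK2 were 7.69 and 8.33. These are given as a description, since *NCAM1* reached the count filter through the cancer lines alone. It was thus higher in both cancer lines, as *PAX2* was, but rose further by 0.64 from 786-O to 786-M1A, where *PAX2* fell. *CDH16*, the kidney cadherin, had 13.7 ± 0.626, 12.0 ± 0.650 and 4.81 ± 0.498 CPM (SD, n = 3) in HK2, 786-O and 786-M1A, and *BCL2* had log2 fold changes of -0.62 in 786-O and -1.56 in 786-M1A. *GDNF* had 77 to 133 reads in HK2, 3 to 11 in 786-O and 12 to 17 in 786-M1A, its receptor *RET* at most 9, and *SFRP2* 5 to 7, 36 to 56 and at most 2. *TG* and *SLC5A5*, which PAX8 activates in the thyroid, had at most 1 read in any library.

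Of 8 targets of WT1, 3 were tested. *AREG*, which encodes amphiregulin and is activated by WT1 in kidney cells, was high in the line without *WT1* reads, with 149 ± 8.64, 7.86 ± 0.107 and 7.27 ± 0.467 CPM (SD, n = 3) in HK2, 786-O and 786-M1A. The log2 fold changes were -4.25 and -4.36 (edgeR adjusted p = 4.02e-24 and 3.51e-24). *SULF2*, a sulfatase that reached the count filter through 786-O alone, had at most 2 reads in HK2, 209 to 231 in 786-O and 18 to 23 in 786-M1A. Its relative *SULF1* had 6 to 10, 86 to 114 and 21 to 29. *PODXL*, the podocyte sialomucin, had log2 fold changes of -0.21 and -0.66 against HK2, and the podocyte gene *NPHS1* had at most 1 read. Whether a factor's level had a part in that of its targets was not tested.

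Genes with the pattern most like that of each tested factor were found by the root mean square difference between centred log2 CPM values over the 9 libraries. For *PAX8* they were *SYMPK* (0.0250), with 104, 101 and 114 CPM in HK2, 786-O and 786-M1A, and *POTEJ* (0.0279), whose sequence is nearly shared with actin copies so that its reads are uncertain. *LHX1* was followed most closely by *FZD2* (0.0771), with 48.8, 19.8 and 11.1 CPM, and *PRKCE* (0.0864). For *PAX2* the nearest genes were *ADGRL2* (0.174), with 28.5, 218 and 78.7 CPM, and *ARNT2* (0.186), and for *WT1* *PREX2* (0.219), with 0, 44.7 and 45.3 CPM, and *ITIH5* (0.273). The nearest tested genes on either side of each factor along the chromosome were chosen after values were seen. *RCN1* and *EIF3M*, 282 and 148 kb from *WT1*, had 367 and 116 CPM in HK2, where *WT1* had none, 460 and 147 CPM in 786-O and 447 and 170 CPM in 786-M1A. *AATF* and *MRM1*, 4.34 and 302 kb from *LHX1*, were higher by 0.37 and 0.34 in 786-O and by 0.08 and 0.39 in 786-M1A on the log2 scale, where *LHX1* was lower. *HIF1AN* and *SLF2*, on either side of *PAX2*, differed from HK2 by -0.21 and -0.04 in 786-O and by -0.47 and -0.29 in 786-M1A on the log2 scale. *PSD4*, 6.61 kb from *PAX8*, differed by 0.41 between 786-M1A and 786-O (edgeR adjusted p = 0.0168), more than the 0.14 of *PAX8*, and *ZNG1B*, on the other side, by 0.14 between 786-M1A and HK2 (edgeR adjusted p = 0.0188), close to the 0.12 of *PAX8*. *SFTA1P*, 2709 kb from *GATA3*, had log2 fold changes against HK2 of -6.81 in 786-O and -6.16 in 786-M1A, whereas *TAF3*, 28.7 kb away on the other side, was higher by 0.76 and 0.53.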

How the data were processed

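mRNA of 3 kidney lines was sequenced as 3 libraries per line. Per the study's methods, cells were plated on replicate dishes, RNA was made into TruSeq Stranded mRNA libraries and read on a NextSeq sequencer, and reads were counted on genes of hg38 with Rsubread. The submitters' processing notes name featureCounts and GRCh38. The authors deposited whole-number counts per gene without normalization, and no row lacks a gene identifier. Neither the annotation version nor the strand setting is given in the sources used here.

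Symbols came from RefSeq (27745 of 28395 identifiers matched). Exon lengths and overlapping genes came from GENCODE release 44, and promoter windows from RefSeq on GRCh38.p14. *LHX1* has no window in the table used, and 7 of the 8 factors have at least 1. Levels between genes were compared as CPM per kb of all annotated exons of a gene merged, which can exceed the length of the transcripts in use.

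Genes averaging 50 or more counts in the 9 libraries were kept, which is the filter of the study, and these 12695 were tested with edgeR 4.0.16 (TMM, robust quasi-likelihood, 1 coefficient per line, all 9 libraries in 1 fit) in R 4.3.3, with Benjamini-Hochberg adjustment over all of them with calls at 0.05. Libraries of a line varied by 3.93% (biological coefficient of variation). A standard error is the log2 fold change divided by the root of F. Log2 CPM used a prior count of 2. A fold against a line at 0 was bounded by 3 counts in its shallowest library. Count ratios of genes under the filter have exact binomial 95% intervals. The smallest exact two-sided permutation p of 3 against 3 libraries is 0.1. The study normalized log2 counts by VSN for limma, and that package was not used here. Alternatives were DESeq2 1.42.0, RLE and upper-quartile factors, no filter on low counts, at least 10 counts in every library, log2 counts centred on the median with 0 set to 0.5 followed by limma 3.58.1, a fit that leaves out the third line, a block of replicate numbers, leaving out each library, and summing antisense counts. The fits were tested on simulated counts.

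Named genes are the 8 factors, genes of the lists that passed the threshold with at least a 2-fold difference, were at 0 in a line or carry a sentence, antisense neighbours, and the 2 genes most like each tested factor. Single results of some listed genes are not reported here, though the counts of their lists hold them. The factors and lists were chosen with earlier results of these data known. Python 3.11.15, pandas 2.3.3 and scipy 1.17.1 were used for the other steps.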

Additional observations from a re-analysis of the deposited data

Results flagged for a closer look

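The difference from HK2 was not the same in the 2 cancer lines for any of the 4 tested factors, and this difference of differences was itself tested as the contrast of 786-M1A and 786-O in edgeR's fit. It was 0.14 for *PAX8* (edgeR adjusted p = 0.00629), -1.23 for *PAX2* (6.55e-11), -0.74 for *LHX1* (3.93e-10) and 0.42 for *WT1* (2.41e-07), all on the log2 scale as 786-M1A minus 786-O, in a comparison where 56% of the tested genes were called. All 3 libraries of 786-M1A lay on the same side of all 3 of 786-O for each of the 4. In this comparison 61.6% of all tested genes had libraries without overlap. With 3 libraries per line, Dixon's test of single values within a line was not run.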

How the results depend on the processing

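Over all alternatives, 207 values of a factor's log2 fold change kept their direction and their side of the threshold, 2 lost the call and 4 changed sign. *PAX8* between 786-O and HK2, which was not called, turned from -0.02 to 0.00044 without a filter on low counts and to 0.026 with log2 counts and limma. Leaving out 1 library at a time it ran from -0.049 to 0.0025, above 0 without HK2 replicate 3 or 786-O replicate 3. *PAX8* between 786-M1A and HK2 lost its call with upper-quartile factors (0.07) and without HK2 replicate 2 (0.10) and ran from 0.07 to 0.16. The cause of these changes was not tested. Without a filter on low counts, 5 factors were called between 786-O and HK2 in place of 3, since *HNF4A* and *GATA3* then entered the fit, and likewise 6 in place of 4 between 786-M1A and 786-O. With *GATA3* it was 5 in place of 4 between 786-M1A and HK2. With at least 10 counts in every library *WT1*, at 0 in HK2, was not in the fit. Leaving out 1 library at a time, 3, 3 to 4 and 4 factors were called between 786-O and HK2, 786-M1A and HK2, and 786-M1A and 786-O, and 18 to 19, 17 to 19 and 12 to 13 genes of the kidney factor lists. Deviations of same-numbered libraries were at most weakly correlated across genes. The correlations ran from -0.167 to 0.038 in pairs with HK2 and were 0.215, 0.074 and 0.110 between the cancer lines. Libraries with unlike numbers were not compared, so whether the replicate numbers pair the samples cannot be decided from these values. Under a replicate block, the counts of factors called were 3, 4 and 4 and those of list genes 19, 18 and 13, and the log2 fold changes of *PAX8* were -0.02, 0.12 and 0.14. Depth limits *EMX2*, *POU3F3* and *HNF4A* in HK2 and 786-M1A, where fewer than 3 reads per library were counted.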
